A study of Mus musculus with 3 samples.

Results

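The genes described here encode the proteasome: its 20S core, its 19S cap, the immunosubunits Psmb8, Psmb9 and Psmb10, the Psme activators, the inhibitor Psmf1 and the Psmg assembly chaperones. They were chosen by symbol, as the array's probe sets that the platform annotation gives exactly 1 gene symbol, made of Psm, a letter from a to g and a number. The rule found 100 probe sets for 47 genes, of 18193 genes named on the array, and each gene was read by the probe set with the highest mean over all arrays. The study hybridised RNA from sorted CD8+ T cells of mice to 3 Affymetrix 430 2.0 arrays, 1 array for each of 3 groups. The first group was NK1.1+ CD8+ cells and the second NK1.1− CD8+ cells, both of mice 15 to 17 days old with the genotype Tgfbr2 fl/fl x CD4-Cre (KO), whose T cells lack the type II receptor for transforming growth factor β (TGF-β). The third group was CD8+ T cells of littermates with the genotype Tgfbr2 fl/wt x CD4-Cre (control). NK1.1 is a surface receptor of natural killer (NK) cells. All groups therefore carried the Cre transgene and at least 1 floxed allele, and the controls kept 1 intact allele, so no array shows cells without Cre. Cre driven by Cd4 regulatory sequence acts while thymocytes carry CD4, so it deletes in the whole αβ T lineage and not in CD8+ cells alone. The labels call the control cells NK1.1− in places and total CD8+ cells in another, so their gate is not settled. The labels used here name no strain, tissue or number of animals behind an array.

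The 20S core is a barrel of stacked rings, with outer rings of alpha subunits (Psma genes) that gate the entry and inner rings of beta subunits (Psmb genes), of which Psmb5, Psmb6 and Psmb7 carry the peptide-cutting sites. The 19S cap, made of Psmc ATPases and Psmd subunits, binds ubiquitin-tagged proteins, removes the ubiquitin, unfolds the chain and feeds it into the barrel. In lymphocytes and in cells exposed to interferon-γ, Psmb8, Psmb9 and Psmb10 take the place of Psmb5, Psmb6 and Psmb7 in newly built cores, and the PA28 activator of Psme1 and Psme2 can bind in place of the cap, which changes the peptides that reach MHC class I. Psmb8 and Psmb9 lie in the MHC class II region beside the peptide transporter genes, in the RefSeq order Psmb9, Tap1, Psmb8, Tap2.

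Promoters are shown for 2 immunosubunits, for the constitutive subunit that Psmb8 replaces, and for the PA28 subunit Psme1, because these are the genes whose regulation sets the 2 forms of the proteasome apart. The windows run from 250 bases before to 50 bases after the gene start and come from RefSeq on GRCm38.p6, where 39 of the 47 members matched with 41 promoters. Psma8, Psmb1, Psmb2, Psmb7, Psmc3, Psmd3, Psmd7 and Psmg2 had no entry. Sequences are written 5′ to 3′ on the gene's strand, and capitals mark any match, on either strand, to the interferon-γ element GAS (TTCNNNGAA), the interferon regulatory factor motif (GAAANNGAA) or the antioxidant response element (TGANNNNGC).
Psmb8 (chr17:34197945-34198244, plus strand): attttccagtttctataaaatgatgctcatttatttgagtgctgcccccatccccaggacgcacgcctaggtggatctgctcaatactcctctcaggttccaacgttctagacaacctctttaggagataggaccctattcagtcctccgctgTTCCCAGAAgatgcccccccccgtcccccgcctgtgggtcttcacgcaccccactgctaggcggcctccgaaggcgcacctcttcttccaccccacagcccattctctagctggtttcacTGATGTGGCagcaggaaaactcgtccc
Psmb9 (chr17:34187281-34187580, minus strand): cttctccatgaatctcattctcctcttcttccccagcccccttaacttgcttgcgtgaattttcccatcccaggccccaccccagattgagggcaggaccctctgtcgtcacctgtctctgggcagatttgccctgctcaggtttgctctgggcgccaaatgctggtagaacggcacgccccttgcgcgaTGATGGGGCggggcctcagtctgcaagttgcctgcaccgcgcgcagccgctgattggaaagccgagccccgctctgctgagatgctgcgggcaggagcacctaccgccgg
Psmb5 (chr14:54617946-54618245, minus strand): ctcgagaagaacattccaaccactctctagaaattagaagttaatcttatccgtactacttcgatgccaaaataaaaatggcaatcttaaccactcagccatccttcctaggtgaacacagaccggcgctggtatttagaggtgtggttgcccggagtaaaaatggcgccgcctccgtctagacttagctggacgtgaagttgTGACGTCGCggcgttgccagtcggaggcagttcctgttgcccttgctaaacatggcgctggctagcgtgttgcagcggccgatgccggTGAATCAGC
Psme1 (chr14:55578244-55578543, plus strand): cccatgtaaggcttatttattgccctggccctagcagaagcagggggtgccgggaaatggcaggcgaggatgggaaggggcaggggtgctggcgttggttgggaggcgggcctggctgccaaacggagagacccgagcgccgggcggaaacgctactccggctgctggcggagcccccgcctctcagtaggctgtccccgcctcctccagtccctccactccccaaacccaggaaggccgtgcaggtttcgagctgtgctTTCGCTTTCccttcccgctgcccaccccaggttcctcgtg
The Psmb8 window held a GAS match 97 bases before the gene start, and an antioxidant element match from base 24 of the transcript. The Psmb9 window held an antioxidant element match 60 bases before the gene start, and it shares 275 of its 300 bases with the window of Tap1, which is read from the other strand. The Psmb5 window held, of the 3 marked motifs, antioxidant element matches alone, 47 bases before the gene start and from base 42 of the transcript. The Psme1 window held an interferon regulatory factor match from base 11 of the transcript. Among the members' 41 promoters, 3 held a GAS match (7.32%, beside 8.30% of all 32851 promoters), namely those of Psmb8, Psmd2 and Psmg1. The interferon regulatory factor motif was in 7 (17.1%, beside 8.56%), for Psmb3, Psmb4, Psmc2, Psmd4, Psmd9, Psme1 and Psmg4. The antioxidant element was in 23 (56.1%, beside 41.3%), CCAAT in 14 (34.1%, beside 37.4%) and the GC box GGGCGG in 22 (53.7%, beside 35.7%). The window of the remaining immunosubunit, Psmb10, is not printed and held no match to any of these motifs. Matches to different motifs overlapped in 6 of the members' promoters, among them that of Psmb9, where the GC box match begins 55 bases before the gene start, inside the antioxidant element match. A match is a run of letters in this window and not a binding site, and the motifs are short enough to occur in many promoters.

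All values are deposited GCRMA intensities on a linear scale, and differences are given as log2 differences or as folds. Readings of 9.57 and more counted as measured; this is the 95th percentile of 142 probe sets of receptors, keratin-associated proteins and lens crystallins restricted to other tissues. Values below that level were raised to it, so that a fold against such a value is a lower bound. A gene was called higher or lower at a difference of 2-fold or more. With 1 array a group there is no spread between animals, no test and no p-value, and every fold compares single arrays. Levels of different genes are not compared, since each probe set has its own brightness. Of the 18193 genes, the control array measured 9611, the NK1.1− KO array 9738 and the NK1.1+ KO array 10130. The probe set shared by Klrb1b and the NK1.1 gene Klrb1c read 7.09 in the control, 52.7 in NK1.1− KO and 1618 in NK1.1+ KO. Tgfbr2 itself read 2634 in the control, 1271 in NK1.1− KO and 1808 in NK1.1+ KO; the labels do not name the floxed exon. The ratio of the 3′ to the 5′ control probe sets, which is higher for shorter or more degraded RNA, was for Actb 6.02 in the control, 12.3 in NK1.1− KO and 81.9 in NK1.1+ KO. For Gapdh the same ratio was 17.8, 26.7 and 10.8 in that order, so the 2 controls do not rank the arrays alike.

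Of the 47 members, 45 were measured on at least 1 array and 44 on all 3. Psmb11, the thymoproteasome subunit of thymic cortical epithelium, read 6.40, 5.79 and 6.51 in the control, NK1.1− KO and NK1.1+ KO, below the measured level on every array. Psma8, an alpha subunit of the testis, was likewise below it at 5.50, 5.62 and 6.29. Psmg4 was below the level in NK1.1+ KO only. All other core, cap, activator and chaperone genes were measured on the 3 arrays.

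**Figure D1:**
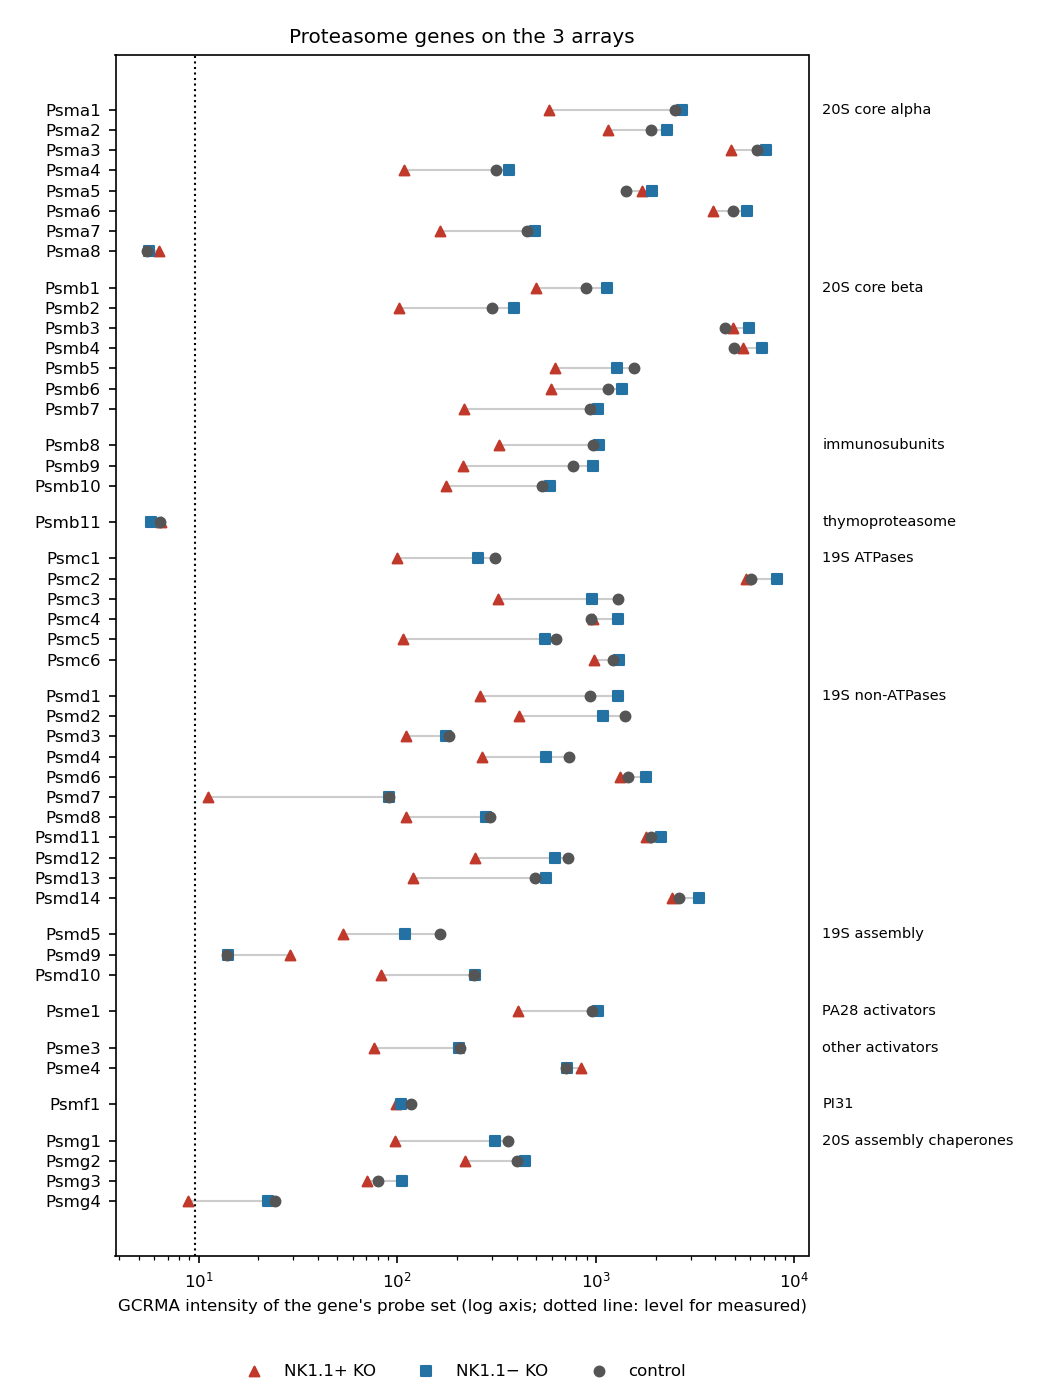
Deposited GCRMA intensity (log axis) of each of the 47 proteasome genes on the NK1.1+ KO (triangles), NK1.1− KO (squares) and control (circles) arrays, 1 array per group, grouped by role; the dotted line is the measured level of 9.57. Squares and circles lie close together for each gene, while the triangle is the lowest for many genes, and positions of different genes are not comparable.

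The first comparison, NK1.1− KO against control, asks how CD8+ cells of KO mice that lack NK1.1 differ from control cells in proteasome RNA. None of the 45 measured members differed by 2-fold, beside 8.04% of 10089 measured genes called higher and 5.54% called lower. The members' log2 differences ran from -0.58 to 0.48 with a median of 0.12, beside 0.01 over all measured genes, and 30 members were above 0 and 15 below. The core read slightly above the control, well within 2-fold: 13 of its 14 members measured above the control, with a median log2 difference of 0.23, beside 0.14 when plain _at probe sets alone were used and beside 5226 of 10089 genes that were above 0. All 7 measured alpha subunits were among them, from 0.11 for Psma1 to 0.25 for Psma2 and 0.44 for Psma5. Of the core, only the catalytic subunit Psmb5 was lower, at 1278 in NK1.1− KO and 1556 in the control. The largest core difference was that of Psmb4, a beta subunit without a cutting site, which read 6844 against 4977. These core directions hold for the probe sets that represent the genes. The plain _at sets of Psma7 and Psmb4 read below the control, at 259 against 348 and 1611 against 1716. The further measured sets of core genes that do not represent a gene read above it. In bulk RNA, fewer cells with these transcripts cannot be told apart from less of each transcript per cell.

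The cap genes were split. Of the 17 genes of the 19S particle, 8 were above the control and 9 below, with log2 differences from -0.43 to 0.48. Psmd1, the large scaffold of the cap's base, read 1293 against 930.5, and Psmc4, an ATPase, read 1298 against 948. Psmc3, another ATPase of the same ring, read 958 against 1289. Psmd2, which binds ubiquitin-like shuttle proteins, read 1087 against 1406, and the ubiquitin receptor Psmd4 read 560.4 against 734. The lowest difference of any member was that of Psmd5, a chaperone of cap assembly, at 109 against 164 (-0.58). By the probe sets that represent them, ATPases of the same ring were on both sides of the control, each within 2-fold. The side depended on the set for Psmc2 and Psmc4. The brighter plain _at set of Psmc2 read 3009 against 3299, and that of Psmc4 read 167 against 183. Other measured sets of Psmc2 and Psmc6 read above the control.

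The immunosubunits read close to the control. Psmb8 read 1035 in NK1.1− KO and 966 in the control, Psmb9 read 974 and 766, and Psmb10 read 585 and 537, so that all 3 were on the higher side by 0.10, 0.35 and 0.12 on the log2 scale. Psme1 read 1021 and 961. The nuclear activators Psme3 and Psme4 read 204 and 208, and 717 and 711. Psmf1, the PI31 protein that binds the core, read 104 and 117. By the probe sets that represent them, these regulators were within 0.16 of the control on the log2 scale. A dimmer Psmf1 set read 11.2 in NK1.1− KO and 22.9 in the control (-1.04), the only measured probe set of a member called lower in this comparison, while the other Psmf1 sets were within 2-fold. The probe set of Psme2, the partner of Psme1, also reads Psme2b and so is not a member; it read 1726 in NK1.1− KO and 2249 in the control.

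The same 2 arrays differed in genes of cell division and of the interferon-γ response. The NK1.1− KO array read 15 of 18 measured proliferation genes 2-fold or more above the control (83.3%, beside 8.04% of all genes) and 0 below. Their median was 1.93, and Mki67, a marker of dividing cells, read 6945 against 1487. Of 16 measured interferon-γ response genes, 4 were called higher (25%, beside 8.04% of all genes), with a median of 0.37. Cxcl10, a chemokine of that response, read 88.2 against 15.8, Gbp3, a GTPase, read 2982 against 753, and Irf8, a transcription factor, read 228 against 89.5. Irf1, the factor known to drive immunosubunit genes, read 2167 against 2020. Immunosubunits, which the same cytokine induces in many cells, were within 2-fold of the control, as were most of the 16 response genes. A link between these readings was not tested.

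The second comparison, NK1.1+ KO against control, asks how the NK1.1-bearing KO cells differ from control T cells. Of the 45 measured members, 25 were called lower (55.6%), beside 22.8% of 10668 measured genes, and 1 was called higher, beside 9.83%. The median log2 difference was -1.35 for the members and -0.17 over all measured genes, and 39 members were below 0. Members of most roles were called lower: 6 of 14 core genes, all 3 immunosubunits, 10 of 17 genes of the cap, 2 of 3 cap chaperones, 2 of 3 activators and 2 of 4 Psmg chaperones were called lower. The members called lower were 2.37-fold to 8.09-fold below the control, and the members with the nearest misses were Psmb6 at 1.93-fold and Psmg2 at -0.87 on the log2 scale. Scaling moved the split of all genes: with quantile normalization 18.5% were called lower and 12.6% higher. With centring, in which arrays were scaled to 1 median over genes measured on all 3, the shares were 13.0% and 15.9%. The median over the 11489 genes then measured on either array was 0.19. Under quantile normalization and centring the members called lower numbered 25 and 21. The members' median relative to that of all genes was -1.05 and -1.14, beside -1.18 as reported. With the mean of all probe sets of a gene it was -0.60. Of the 25 members called lower, 14 were called lower in every alternative processing that gave them a value: Psma4 and Psma7 of the alpha ring, Psmb2 and Psmb7 of the beta ring, the immunosubunits Psmb9 and Psmb10, the cap genes Psmc3, Psmc5, Psmd1, Psmd4 and Psmd12, and the chaperones Psmd5, Psmd10 and Psmg1. All of these but Psma7 and Psmd4 have 1 probe set, so alternatives that change the choice of probe set could not remove them.

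**Figure D2:**
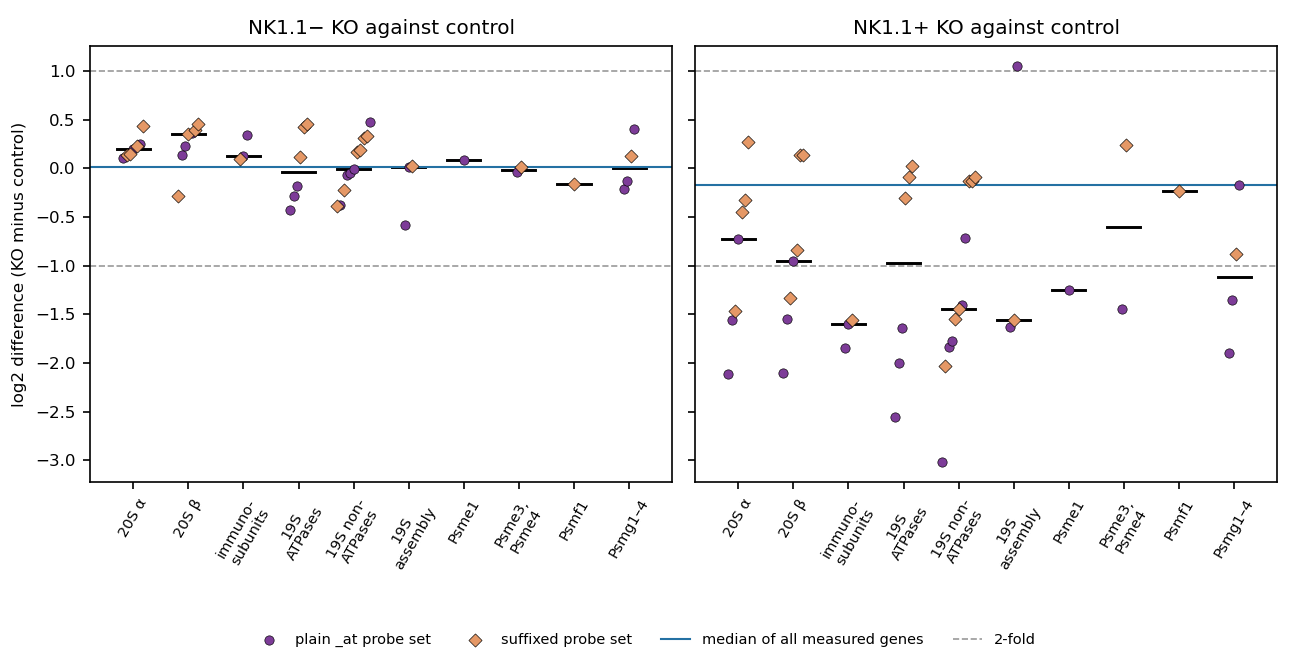
Log2 difference from the control of each measured proteasome gene, by role, for NK1.1− KO (left) and NK1.1+ KO (right). Circles are genes read by a plain _at probe set and diamonds by a suffixed one, black bars are medians of a role, the blue line is the median of all measured genes and dashed lines mark 2-fold: on the left all 45 genes lie within 2-fold, and on the right all 3 immunosubunits and 10 of 17 genes of the 19S particle lie below the lower line.

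Among the alpha subunits, Psma1 read 2516 in the control, 2709 in NK1.1− KO and 582 in NK1.1+ KO. Psma4 read 316, 364 and 108 in the same order, and Psma7 read 452, 497 and 164. These 3 genes were 4.33-fold, 2.94-fold and 2.76-fold lower in NK1.1+ KO than in the control, with the NK1.1− KO array above the control each time. Psma2 read 1908, 2274 and 1155, a 1.65-fold difference that was not called. Psma3 read 6487, 7186 and 4774, and Psma6, a neighbour in the same ring, read 4900.3, 5756 and 3912. Psma5 read 1420.2, 1922 and 1714. The bright readings of these last genes stayed within 2-fold, although every alpha ring holds each subunit in equal number.

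Among the beta subunits, the trypsin-like catalytic subunit Psmb7 read 938 in the control, 1031 in NK1.1− KO and 218 in NK1.1+ KO. The chymotrypsin-like subunit Psmb5 read 1556, 1278 and 621. The caspase-like subunit Psmb6 read 1156, 1361 and 598. Psmb7 and Psmb5 were called lower than the control in NK1.1+ KO, by 4.30-fold and 2.51-fold, and Psmb6, at 1.93-fold, was not. The structural subunit Psmb2 read 300.5, 386 and 103, and was 2.93-fold lower. Psmb3 read 4467, 5880.4 and 4925, and Psmb4 read 4977, 6844 and 5487, so these 2 structural subunits read above the control by 0.14 on the log2 scale, although their plain _at probe sets read below it, as given further on.

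The 3 immunosubunits all read lowest in NK1.1+ KO. Psmb8, the chymotrypsin-like immunosubunit, read 966 in the control, 1035 in NK1.1− KO and 327 in NK1.1+ KO. Psmb9, the immunosubunit that replaces Psmb6, read 766, 974 and 214. Psmb10, which replaces Psmb7, read 537, 585 and 177. Against the control they were 2.95-fold, 3.58-fold and 3.03-fold lower. With the mean of all probe sets of a gene in place of the brightest, Psmb8 was no longer called.

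A ratio within a pair shows whether an immunosubunit and its constitutive counterpart differed unequally. The log2 ratio of Psmb8 to Psmb5 changed by -0.24 from control to NK1.1+ KO, that of Psmb9 to Psmb6 by -0.89 and that of Psmb10 to Psmb7 by 0.51. From control to NK1.1− KO the same ratios changed by 0.38, 0.11 and -0.01. In NK1.1+ KO the ratio read lower for the Psmb9 pair and higher for the Psmb10 pair, neither by 2-fold against the control. Each ratio rests on 1 probe set per gene and on single arrays. Measured sets of 1 member had a pooled SD of 1.07 on the log2 scale for NK1.1+ KO against control. Each of the 3 changes was smaller than that, so they do not settle whether the pairs differ.

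**Figure D3:**
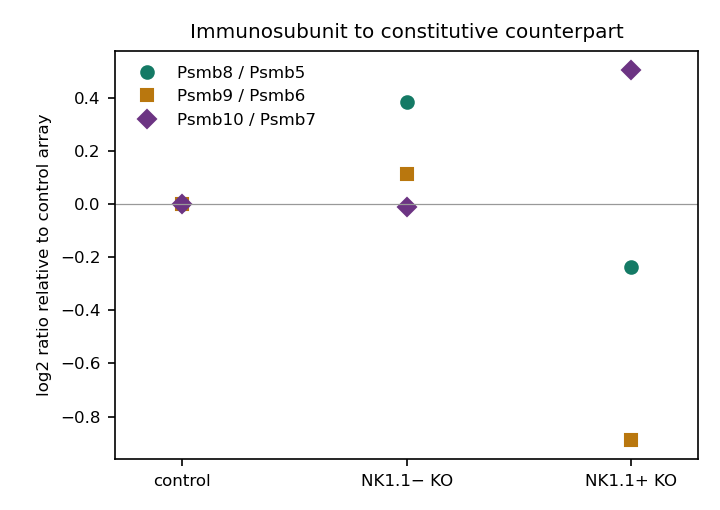
Log2 ratio of each immunosubunit to its constitutive counterpart relative to the control array, for Psmb8 to Psmb5 (circles), Psmb9 to Psmb6 (squares) and Psmb10 to Psmb7 (diamonds); each point is 1 array and the control is 0 by construction. The NK1.1+ KO points lie at -0.24, -0.89 and 0.51, on both sides of 0, and each ratio rests on 1 probe set per gene.

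Of the 6 ATPases that form the motor ring of the cap, 3 were called lower in NK1.1+ KO. Psmc5 read 629 in the control, 557 in NK1.1− KO and 107 in NK1.1+ KO, and was 5.86-fold below the control. Psmc3 read 1289, 958 and 323 (3.99-fold), and Psmc1 read 310.5, 254 and 99.3 (3.13-fold). The other 3 ATPases did not reach 2-fold. Psmc2 read 6067, 8178 and 5706. Psmc4 read 948, 1298 and 965, with its plain _at set below the control, and Psmc6 read 1214, 1314 and 981. By the sets that represent them, members of the same ring ran from 5.86-fold lower to level with the control. This spread depended on the choice of set. The brighter plain _at set of Psmc2 was at -1.74 on the log2 scale and that of Psmc4 at -1.69.

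Of the 11 other subunits of the cap, 7 were called lower. Psmd7, a lid subunit that pairs with the deubiquitinase Psmd14, read 90.7 in both the control and NK1.1− KO and 11.2 in NK1.1+ KO, a difference of 8.09-fold that ends close to the measured level. Psmd13, also of the lid, read 492, 562 and 120.3, and was 4.09-fold lower. Psmd1 read 930.5, 1293 and 261 (3.57-fold), and its partner Psmd2 read 1406, 1087 and 411 (3.42-fold). The base scaffold and shuttle receptor pair was thus lower together. Psmd12, a lid subunit, read 726, 624 and 248 (2.93-fold), and the ubiquitin receptor Psmd4 read 734, 560.4 and 269 (2.73-fold). Psmd8, also of the lid, read 294, 279.8 and 111 (2.64-fold). The other 4 cap subunits were not called: Psmd3 read 182, 176 and 111, and Psmd6 read 1453, 1799.9 and 1332. Psmd14, which cuts ubiquitin from the substrate, read 2635, 3329 and 2412, and Psmd11, a lid subunit, read 1906, 2138 and 1795.

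The chaperones that help build the cap differed in both directions. Psmd10 (gankyrin) read 243 in the control, 247 in NK1.1− KO and 82.5 in NK1.1+ KO, 2.94-fold below the control. Psmd5 read 164, 109 and 53.1 (3.08-fold). Psmd9 (p27) was the only member called higher: it read 13.96, 14.1 and 28.98, a 2.08-fold difference at low intensity that was not called with a higher measured level, an added offset or the mean of its probe sets. Among the Psmg chaperones, which assemble the alpha ring, Psmg1 read 362, 312 and 97.1 and was 3.72-fold lower. Its dimer partner Psmg2 read 401, 439 and 219, short of the 2-fold rule against the control. Psmg3 read 79.8, 106 and 70.8. Its partner Psmg4 read 24.4, 22.3 and 8.85, which is at least 2.55-fold lower since the last value is below the measured level.

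Of the activators, Psme1 read 961 in the control, 1021 in NK1.1− KO and 405 in NK1.1+ KO, a 2.37-fold difference. Psme3, the nuclear PA28 subunit, read 208, 204 and 76.5 (2.72-fold). Psme4, the PA200 activator, read 711, 717 and 839, while its other sets lay on both sides of the control in NK1.1+ KO. The probe set shared by Psme2 and Psme2b read 2249, 1726 and 461, a log2 difference of -2.29 from the control in NK1.1+ KO. Both genes of interferon-induced PA28 thus read lower on this array, Psme2 through a probe set that cannot separate it from Psme2b. Psmf1 read 117, 104 and 99.2.

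How low a member read in NK1.1+ KO went with the probe set that read it. An Affymetrix probe set ending in plain _at was designed to read 1 gene's transcripts alone, while _a_at covers several transcripts of a gene and _s_at or _x_at can share probes with other transcripts. Of the 23 measured members read by a plain _at set, 18 were called lower than the control, with a median log2 difference of -1.60, beside 23.0% of 7706 genes read by such sets. Of the 22 read by another kind, 7 were called lower, with a median of -0.32, beside 22.3% of 2962 genes. All 7 were read by _a_at sets, and no member read by an _s_at or _x_at set was called lower. Over all genes the 2 kinds thus differed little, and among the members they differed widely. Brightness moved with the members as well: of 26 members with a mean from 100 to 1000, 21 were called lower, and of 15 members with a mean of at least 1000, 2 were. Among all genes the corresponding shares were 26.6% and 13.3%.

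Where a member had several measured probe sets, they often disagreed about NK1.1+ KO. Of the 25 members called lower, 18 were read by a single measured probe set, and 3 (Psma7, Psmd4 and Psme3) had 2 or more that were all 2-fold or more lower. In Psma1, Psmb8, Psmd7 and Psmd13 another probe set was not 2-fold lower. The second Psmd7 set read 45.6 in the control, 45.7 in NK1.1− KO and 46.4 in NK1.1+ KO, against 90.7, 90.7 and 11.2 for the set that represents the gene. The second Psmb8 set, much dimmer, read 58.8, 77.4 and 48.5. For Psma1, Psmb8 and Psmd7 the call rests on the brightest probe set. Of the other Psma1 sets, the brightest read 36.8 in the control and 48.8 in NK1.1+ KO. The others read 10.4 and 10.6 in the control, too close to the measured level to fall 2-fold. In Psmd13 a further set was also lower, at 310 in the control and 77.2 in NK1.1+ KO. The Psmd13 set that was not lower read 9.86 in the control and so could not fall 2-fold.

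Of 15 members that were not called lower and had 2 or more measured sets, 9 had another set that was. They were Psmb3, Psmb4, Psmc2, Psmc4, Psmd6, Psmd11, Psme4, Psmf1 and Psmg2. The plain set of Psmb3 read 679 in the control, 783 in NK1.1− KO and 317 in NK1.1+ KO. The plain set of Psmb4 read 1716 in the control, 1611 in NK1.1− KO and 630 in NK1.1+ KO. For Psmb3, Psmb4, Psmc4 and Psme4 the set that represents the gene read above the control and another set 2-fold or more below it. The plain set of Psmc2 read 3299, 3009 and 989, and that of Psmc4 read 183, 167 and 56.7. Psmd11 spanned log2 differences from -3.36 to 0.62 over 5 sets, and Psme4 spanned -2.50 to 1.30 over 5. The SD between measured sets of a member, pooled over 22 members, was 1.07 on the log2 scale for NK1.1+ KO against control, and 0.33 over 23 members for NK1.1− KO against control. The sets of a member thus lay much closer together in the first comparison than in the second. Over all 83 probe sets of members measured in the second comparison, 38 were 2-fold or more lower and 2 were higher. The shares over all genes, each counted by 1 probe set, were 22.8% and 9.83%, and are not shares over all probe sets.

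**Figure D4:**
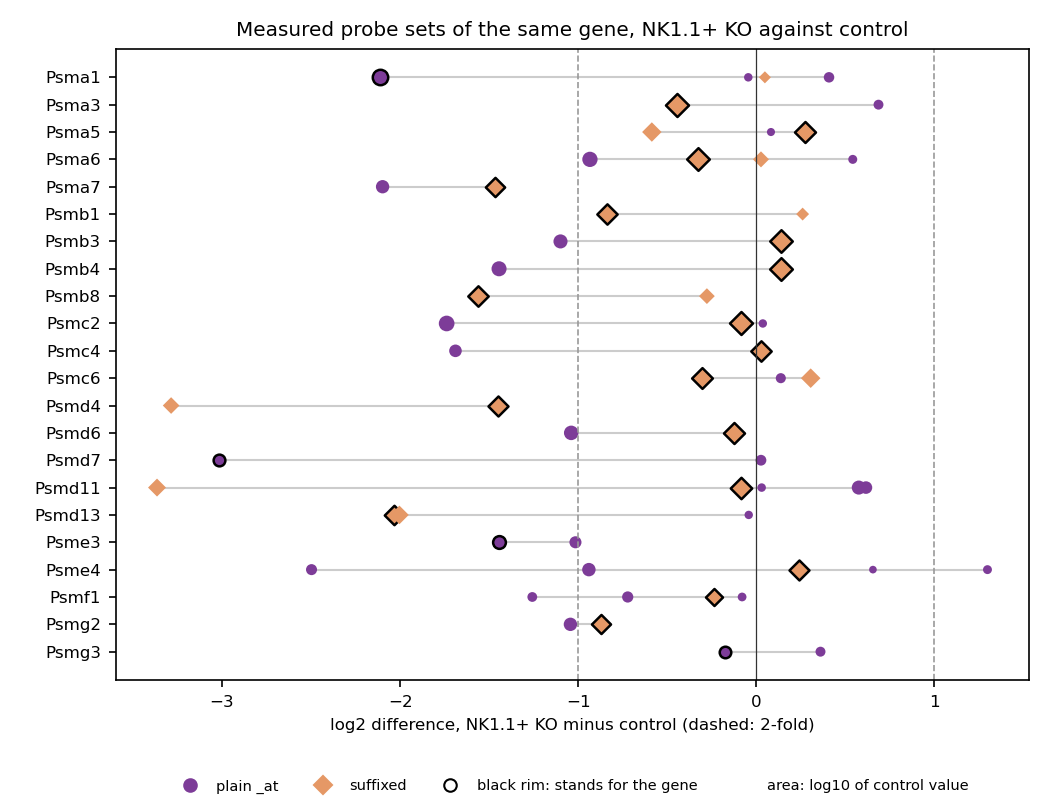
Log2 difference between NK1.1+ KO and control of every measured probe set of the 22 members with 2 or more; circles are plain _at sets, diamonds suffixed ones, a black rim marks the set that represents the gene, the area grows with the log10 of the control value and dashed lines mark 2-fold. The sets of a gene often lie far apart, with Psmd11 running from -3.36 to 0.62.

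The 3′ to 5′ ratio of Actb given above also stands apart on the NK1.1+ KO array, while that of Gapdh does not, and the part of RNA length or quality in these differences was not tested. T cell genes were lower on the same array: 8 of 9 measured T cell markers were called lower than in the control, with summed intensities of 13724 in the control, 9566 in NK1.1− KO and 4539 in NK1.1+ KO. Cd3e, a chain of the T cell receptor complex, was the marker not called lower, at 701 in the control, 750 in NK1.1− KO and 776 in NK1.1+ KO. Monocyte and macrophage markers were higher: 8 of 11 measured were called higher, with sums of 7714, 5606 and 19758, while C1qa, Cd14 and Itgam were below the measured level in NK1.1+ KO. Most of the control and NK1.1− KO sums was Ctss, which read 7510.5, 5289 and 9587 and was not called. Csf1r made up most of the rest of the NK1.1+ KO sum, reading 30.5, 54.5 and 7666. Dendritic cell markers summed to 920, 722 and 2138, with 4 of 7 measured called higher in NK1.1+ KO and 1 lower, while Flt3, Siglech and Xcr1 were below the level on every array. B and plasma cell markers summed to 876, 1242 and 4317. Jchain and Xbp1 made up most of the last sum, at 2282 and 1676, and of 8 measured markers 3 were called higher and 1, Cd79b (-1.13), lower, with 4 above 0 and 4 below and with Cd79a and Pax5 below the level throughout. NK cell markers summed to 686, 2483 and 4645, with 6 of 7 measured called higher than the control in NK1.1+ KO and Ncr1 below the level on every array. The NK1.1− KO sum was mostly Eomes, which T cells also express and which read 593, 2085 and 734. Erythroid markers summed to 73.8, 25.4 and 55.4, and thymic cortical epithelium markers to 124, 74.7 and 80.2, with Foxn1, Prss16 and Psmb11 below the level throughout. The part of other cell types in the proteasome readings was not tested.

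Further sets of genes that every cell uses were set beside the members. Of 45 measured ribosomal protein genes, 19 were called lower than the control in NK1.1+ KO (42.2%, beside 22.8% of all genes) and 1 higher, with a median of -0.84. Of 80 measured respiratory chain and ATP synthase genes, 21 were called lower (26.25%) and 0 higher, with a median of -0.38. The proteasome median of -1.35 lay below both, but the lists were not matched for kind of probe set or brightness. Members read by suffixed sets had a median of -0.32, above both, and those read by plain _at sets -1.60. Members with a mean of at least 1000 had a median of -0.13, and those with a mean from 100 to 1000 had -1.55. In NK1.1− KO against control the same medians were -0.27 for ribosomal protein genes, 0.26 for the respiratory chain and 0.12 for the proteasome, so the ribosomal genes lay on the other side of 0 from the remaining sets.

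The third comparison set NK1.1+ KO against NK1.1− KO, the cells of 1 genotype that differ by the NK1.1 gate. It shares both KO arrays with the comparisons above and so adds no independent reading. Of the 45 members, 28 were called lower in NK1.1+ KO (62.2%), beside 21.2% of 10660 genes, and 1 was called higher, beside 6.53%. The median was -1.19, beside -0.24 over all genes, and 43 members were below 0. With quantile normalization 16.2% of genes were called lower and 8.98% higher, and 22 members lower; with centring the figures were 9.55%, 12.8% and 15. The core stood at 8 of 14 called lower with a median of -1.11, the cap at 10 of 17 with a median of -1.33, and the immunosubunits at 3 of 3, with Psmb8 3.16-fold, Psmb9 4.55-fold and Psmb10 3.30-fold lower. Psmb1, a structural beta subunit that read 897 in the control, 1146 in NK1.1− KO and 503 in NK1.1+ KO, Psmb6 and Psmg2 passed 2-fold in this comparison and did not against the control. Psmd9 was again the member called higher, at 2.05-fold. The log2 ratio of Psmb8 to Psmb5 differed by -0.62 between these arrays and that of Psmb10 to Psmb7 by 0.52. The ratio of Psmb9 to Psmb6 was lower by almost exactly the 2-fold rule, and it fell short of the rule, at -0.94, after quantile normalization.

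Genes that work with the proteasome but fall outside the naming rule were read in the same way. Of 20 measured partners, 5 were called lower than the control in NK1.1+ KO (25%) and 0 higher, with a median of -0.60; this share is near the 22.8% of all genes. The 5 were Vcp, the segregase that extracts ubiquitin-tagged proteins (-1.91), Zfand2a (-1.49), the shuttle factors Ubqln1 (-1.34) and Rad23b (-1.01), and the glycoprotein-trimming enzyme Ngly1 (-1.34). Pomp, the chaperone that matures the core, read 350 in the control, 534 in NK1.1− KO and 179 in NK1.1+ KO. Nfe2l1, the factor that induces proteasome genes when degradation is blocked, read 181, 145 and 173, with no difference near 2-fold. In NK1.1− KO against control, 1 partner on the list was called higher and 0 lower. It was Psmc3ip (1.29), a meiotic recombination factor that is named for binding Psmc3 and is not a proteasome subunit. Between the KO arrays, 8 partners were called lower in NK1.1+ KO (40%, beside 21.2% of all genes) and 0 higher.

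Of 11 measured genes of ubiquitin supply and activation, 2 were called lower than the control in NK1.1+ KO (18.2%, beside 22.8% of all genes), 1 higher and 8 neither. The deubiquitinases Usp7 (-2.22) and Usp5 (-2.38) were the lower ones, and the conjugating enzyme Ube2g2 (1.01) was the higher one. None of the 11 was called in NK1.1− KO against control. Between the KO arrays, 3 were called lower (27.3%, beside 21.2% of all genes).

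The MHC class I pathway, which takes up the peptides the immunoproteasome makes, had 7 of 13 measured genes called lower than the control in NK1.1+ KO (53.8%, beside 22.8% of all genes) and 0 higher, with a median of -1.06. Tap1, the transporter subunit whose promoter window overlaps that of Psmb9, read 421 in the control, 546 in NK1.1− KO and 159 in NK1.1+ KO. Tap2 read 459, 383 and 66.9. Pdia3, a thiol oxidoreductase of the peptide-loading complex, read 710, 664 and 83.3. These 3 genes were lowest in NK1.1+ KO, as the immunosubunits were. The others called lower were Erap1, the peptidase that trims peptides in the endoplasmic reticulum (-1.58), H2-D1 (-1.32), H2-K1 (-1.21) and Tapbpl (-1.06). B2m, the shared light chain of class I, read 11834, 12306 and 11419, and Nlrc5, the transactivator of class I and immunosubunit genes, read 780, 1126 and 1346, higher than the control on both KO arrays but within 2-fold. None of the 13 was called in NK1.1− KO against control. Between the KO arrays, 5 were called lower (38.5%, beside 21.2% of all genes).

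Other interferon-γ response genes were on both sides of the control. Of 16 measured, 10 read above it in NK1.1+ KO and 6 below, and 5 were called higher (31.25%, beside 9.83% of all genes) and 0 lower, with a median of 0.50. Cxcl10 read 15.8 in the control and 69.7 in NK1.1+ KO, Gbp3 read 753 and 1676, and Irf8 read 89.5 and 198. Irf1 read 2020 and 1074 (-0.91). On the NK1.1+ KO array Psmb8, Psmb9, Psmb10 and Psme1 were called lower, and Irf1 read below the control without reaching 2-fold. A link between these readings and the response genes was not tested. Between the KO arrays, 1 of 15 response genes was called higher and 1 lower (6.67% each, beside 6.53% and 21.2% of all genes). Of 19 measured proliferation genes, 7 were called lower than the control in NK1.1+ KO (36.8%, beside 22.8% of all genes) and 1 higher. Against NK1.1− KO, 16 of those measured were called lower (84.2%, beside 21.2%) and 0 higher. Mki67 read 1487 in the control, 6945 in NK1.1− KO and 852 in NK1.1+ KO.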

How the data were processed

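RNA of 3 samples was measured on 3 arrays, 1 per group, and each title gave its sample's group. The deposited values are probe set intensities on a linear scale. The authors made them with GCRMA 1.1.3, per the submitters' processing notes, a method that corrects background by probe sequence, normalizes arrays and summarises probes; its options are not stated there. The table holds 45101 probe sets, 64 of them controls. GEO's platform annotation gives 1 gene symbol for 34945 of the others, several for 932 and none for 9160, and only the first kind was named.

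From these intensities log2 differences were computed with Python 3.11.15, pandas 2.3.3 and numpy 2.4.6, after raising values below 9.57 to that level (3.26 on the log2 scale). The 3 comparisons ran across the whole table, without a test, since each group has 1 array. The number of arrays limits the precision, and arrays do not show whether a group would repeat. The calling script was tested on simulated data. The members, gene lists and rules were chosen with earlier results of these data known. By the rule for named genes, values are given for the immunosubunits and their counterparts, the activators, Psmf1, every member called, and in each other role the 2 largest and the smallest differences of each comparison, with up to 4 of the largest differences of each further list. Irf1, Nlrc5, Pomp, Nfe2l1, B2m and Ngly1 and other genes beyond these were named after their values were seen. Alternatives were a level raised to the 75th percentile over the table, no level, a 1.5-fold rule, an added offset of 32, quantile normalization, centring, the mean of all probe sets of a gene, and plain _at sets alone. Promoters were matched by symbol in a RefSeq table of GRCm38.p6.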

Additional observations from a re-analysis of the deposited data

Results flagged for a closer look

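On the NK1.1− KO array, a second, dimmer probe set of Psmd9 read 30.4, against 8.99 in the control and 7.59 in NK1.1+ KO. It drew attention because it is outside the probe sets that represent the genes and differed from the control by at least 3.18-fold, while the set that represents Psmd9 read 14.1 and 13.96. On the NK1.1+ KO array, a probe set of Psme4 that does not represent the gene read 32.6, against 13.3 in the control and 12.7 in NK1.1− KO, a 2.46-fold difference. Both are single readings at low intensity with no replicate.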

How the results depend on the processing

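Leaving out a replicate was not possible. No paired analysis was possible because each group has 1 array. In NK1.1− KO against control, 0 members passed the rule in all 9 settings, and the median stayed between 0.02 and 0.14. The members called lower in NK1.1+ KO numbered 19 to 30 against the control, and 14 of the 25 were 2-fold or more lower in every alternative that gave them a value. Against NK1.1− KO they numbered 15 to 31, with 15 under centring, and 13 of the 28 were lower throughout. Most of these 14 and 13 members have 1 probe set, so the alternatives that change the choice of probe set could not remove them. The immunosubunits' median ran from -1.72 to -1.15 against the control. The cause of the shifts below was not tested. Members called higher in NK1.1+ KO numbered 0 in either comparison with the 75th percentile level, with the offset of 32 and with the mean over probe sets. Against the control, the members' median was -0.95 with centring and -0.83 with the mean of probe sets. The 19S median was -0.88 with the mean, and the 20S median, -0.89 as reported, ran from -1.27 with plain _at sets, past 2-fold, to -0.44 with centring. Against NK1.1− KO, the members' median was -0.99 with quantile normalization, -0.70 with centring and -0.98 with the mean. The 20S median was -0.90, -0.62 and -0.91 in that order, and the 19S median was -0.83 with centring and -0.99 with the mean. The log2 ratio of Psmb9 to Psmb6, at the 2-fold rule as reported, was -0.94 with quantile normalization and -0.89 with the offset. Against the control with plain _at sets, Psmb3 turned to -1.10, Psmb4 to -1.44 and Psmc4 to -1.69. Between the KO arrays, Psmd9 turned to -0.32 with the mean. Genes called over the whole table ranged from 469 to 1618 higher and 237 to 1492 lower in NK1.1− KO against control, from 555 to 1826 and 1477 to 3705 in NK1.1+ KO against control, and from 326 to 1467 and 1093 to 3782 between the KO arrays.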
